A study of Homo sapiens with 27 samples.

Results

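The response of gene expression to loss of CPSF1 was compared between 22Rv1 and LNCaP95, both hormone-insensitive human prostate cancer cell lines, by asking of each gene whether the change in CPSF1 sh cells differed between the lines. The members were all libraries of these lines, 18 of the 27 in the series, 9 from each line. In each line 3 libraries came from cells infected with a non-targeting hairpin (CTRL sh), 3 from CPSF1 sh1 and 3 from CPSF1 sh2, and the hairpins were pooled into 6 CPSF1 sh libraries. Cells carried lentiviral pGIPZ hairpins, and 500000 cells were seeded per well and collected after 72 h. Each group was 1 cell line, so a difference between the groups is between these lines. LNCaP95 cells were grown in phenol red-free RPMI medium and selected at 1 µg/mL puromycin, and 22Rv1 cells in RPMI medium and selected at 2 µg/mL, both with 10% FBS. A difference between lines and a difference between their media and selection therefore cannot be told apart.

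Counts on genes ran from 9599566 to 15904518 per library, with 1.49 to 2.12% on mitochondrial genes. All 10 luminal epithelial markers, such as KRT8 and HOXB13, were above 2 CPM (counts scaled to library size) in every library of both lines. Their summed level was lower in CPSF1 sh of LNCaP95 without overlap, from 6390 to 6490 CPM in CTRL sh to 4820 to 5110 in CPSF1 sh, and overlapped in 22Rv1, at 3250 to 3270 and 3080 to 3430. KLK3 (963 to 1960 CPM) and TMPRSS2 (250 to 950 CPM) had the widest ranges of these markers over the LNCaP95 libraries. The sum of 5 basal markers went from 45.1 to 46.3 to 60.9 to 68.5 CPM in LNCaP95 and overlapped in 22Rv1, at 85 to 93.6 and 68.6 to 106. DST carried most of it at 41.6 to 64.3 CPM in LNCaP95. Of the other basal markers there, KRT5 and TP63 were at or below 0.187 CPM, KRT14 was at 1.59 to 5.8 and KRT15 at 0.419 to 2.08. In 22Rv1 DST was at 61 to 92.1, KRT15 at 1.09 to 24.2 and KRT14 at or below 0.271 CPM. The sum of 6 fibroblast markers overlapped in LNCaP95, at 54.3 to 69.8 in CTRL sh and 44.9 to 60.8 in CPSF1 sh, and not in 22Rv1, at 24.2 to 26.1 and 18.2 to 21.5. None of the 4 endothelial markers in the table reached 2 CPM in all libraries of either line, and their sum was at 0.935 to 1.74 and 2.44 to 4.75 CPM in LNCaP95 and at most 0.488 in 22Rv1, with VWF at up to 4.39 CPM. The summed level of 6 leukocyte markers moved with CPSF1 sh, from 6.51 to 9.12 CPM in CTRL sh to 17.7 to 37.6 CPM in LNCaP95, and from 2.4 to 2.83 to 4.39 to 9.25 CPM in 22Rv1. CD68, a lysosomal protein, carried most of that sum at 6.25 to 34.7 and 0.938 to 6.95 CPM, while PTPRC, the defining leukocyte gene CD45, was at or below 0.277 CPM in every library. The part of these shifts in the results was not tested. No replicate pair agreed within sampling noise, with a chi-square per degree of freedom of 1.38 to 6.98 over 18 pairs. The 22Rv1 CPSF1 sh1 replicate 3 library stood farthest from its group, with a standard deviation (SD) of log2 deviations over genes of 0.133 against 0.067 to 0.11 in the others.

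CPSF1 is the large scaffold subunit of the cleavage and polyadenylation specificity factor, which binds the AAUAAA signal of a pre-mRNA with its partners, cuts the transcript and lets the poly(A) tail be added. Which signal is used shapes the end of the mRNA, and loss of the complex can leave RNA polymerase running past the gene. Both lines grow without androgen and are studied as models of hormone-insensitive disease. All values here are total gene counts on exons and do not tell which end a transcript used.

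The targeted gene was lower in both lines, and less so in 22Rv1. CPSF1 (hg19, chr8:145618444-145634753) was at 129.6, 98.6 and 118 normalised CPM in the LNCaP95 CTRL sh libraries and at 58.1, 61.3 and 69.5 (lowest, median and highest of 6) in CPSF1 sh. In 22Rv1 it was at 193, 186 and 186 in CTRL sh and at 113, 137 and 145 in CPSF1 sh. Values of other genes follow this order, first the 3 CTRL sh libraries, then the lowest, the median and the highest of the 6 CPSF1 sh libraries. The groups did not overlap in either line, and 4 of the 6 CPSF1 sh libraries of 22Rv1 stayed above every LNCaP95 CTRL sh library. On the log2 scale the change was -0.89 ± 0.08 (standard error, SE) in LNCaP95 and -0.50 ± 0.07 in 22Rv1, a difference of 0.39 ± 0.11 (edgeR quasi-likelihood test, adjusted p = 0.00458). Every difference between the lines below therefore lies beside an unequal loss of CPSF1, and the counts were also taken with the 22Rv1 change multiplied by 1.78, at which CPSF1 itself does not differ.

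Of 10514 genes tested, 5434 (51.7%) responded differently in the 2 lines at an adjusted p below 0.05. The response was more positive in 22Rv1 for 2707 genes (25.7%) and more negative for 2727 (25.9%). Under this test 7183 genes (68.3%) changed in LNCaP95 and 2632 (25%) in 22Rv1, and the median size of the log2 change was 0.27 and 0.11. The 22Rv1 count depended on the hairpin. There 1229 genes rose and 1403 fell with the hairpins pooled, 794 and 1012 with CPSF1 sh1 alone, and 2372 and 2446 with sh2 alone. Across genes the changes correlated weakly, with a Pearson r of 0.3, given as a description since genes are not independent replicates. Of the genes called, 462 differed by more than 1 on the log2 scale. With the 22Rv1 change scaled up, 3950 genes were called. The 5434 genes called without scaling were sorted by what happened in each line. The largest class, 3823 genes (36.4% of those tested), changed in LNCaP95 only, and 474 (4.51%) changed in 22Rv1 only. Here only means that the change in the other line did not pass the test. Libraries were separated in both lines for 337 and 21 of these genes, beside 1858 of all 10514 tested. Each hairpin alone assigned 2043 of the 3823 and 149 of the 474 to the same class. Another 433 (4.12%) moved the same way in both lines and more in LNCaP95, and 43 (0.409%) moved the same way and more in 22Rv1. In 525 the lines changed in opposite directions, and the other 136 differed between lines but changed in neither line alone.

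Opposite responses made up a small share of the differences. Of 1869 genes called in both lines, 525 (28.1%) had opposite signs. These were 235 genes (2.24% of all tested) higher in 22Rv1 and lower in LNCaP95, and 290 (2.76%) lower in 22Rv1 and higher in LNCaP95. The changes were small, with a median size of 0.263 in 22Rv1 and 0.338 in LNCaP95 in the first group and 0.3 and 0.397 in the second, and 11 and 23 genes respectively changed by at least 0.5 in both lines. Libraries of CPSF1 sh and CTRL sh did not overlap in either line for 147 of the 235 and 202 of the 290 genes, beside 2.16% and 2.73% of all tested genes that were separated in both lines in these directions (4.89% in all). The signs were the same with either hairpin in both lines for all 525 genes, which shared CTRL sh libraries and were chosen on the pooled hairpins, and 105 and 144 were assigned to these classes by each hairpin alone. Leaving out CTRL sh replicate 1, 2 or 3 of 22Rv1 gave 145, 132 and 144 genes in the first class and 191, 176 and 199 in the second. Leaving out those of LNCaP95 gave 200, 230 and 204 in the first and 245, 267 and 235 in the second. Without 22Rv1 CPSF1 sh1 replicate 3 the classes held 319 and 345 genes. With the hairpins as separate groups they held 443 and 475, with CPSF1 sh2 alone 582 and 576, and with CPSF1 sh1 alone 155 and 216.

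**Figure D1:**
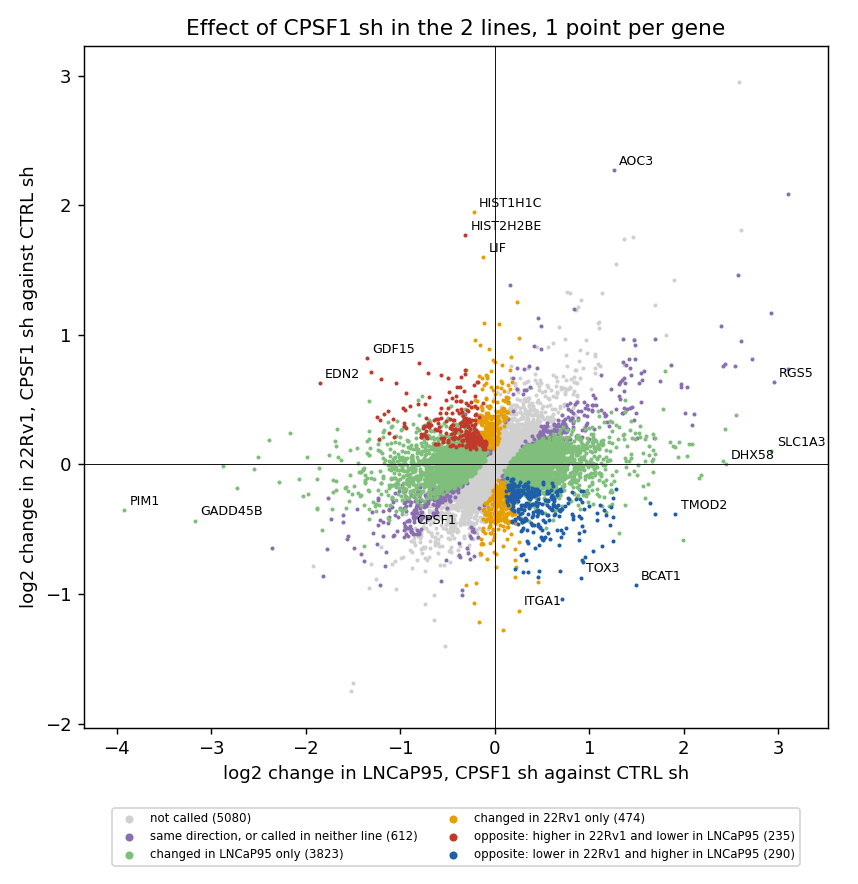
Log2 change of each of 10514 genes in CPSF1 sh against CTRL sh, in LNCaP95 on the x axis and in 22Rv1 on the y axis, coloured by the class of its difference between lines, with the number of genes in the key. The spread is wider along the LNCaP95 axis, and the 235 and 290 genes with opposite responses lie in the upper left and lower right quadrants.

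Among genes higher in 22Rv1 and lower in LNCaP95 the difference was largest for EDN2, and the 6 named by size included 3 that encode secreted signals. EDN2 (chr1:41944446-41950344), which encodes the vasoactive peptide endothelin-2, was at 14, 14.9 and 12.1 CPM in the 22Rv1 CTRL sh libraries and at 18, 22 and 23.1 in CPSF1 sh. In LNCaP95 it was at 23.7, 15.3 and 17.6 in CTRL sh and at 3.8, 5.41 and 6.04 in CPSF1 sh. LNCaP95 was thus above 22Rv1 in every CTRL sh library and below it in every CPSF1 sh library, with log2 changes of 0.63 and -1.85 and a difference of 2.48 ± 0.19 (adjusted p = 2.56e-09). TGFB1, the cytokine transforming growth factor β1 (chr19:41807492-41859816), was at 19.9, 16 and 15 and 24.4, 26.3 and 32 in 22Rv1, and at 14.4, 7.86 and 13 and 3.97, 4.94 and 6.32 in LNCaP95. Its groups did not overlap in either line, and the difference was 1.86 ± 0.22 (adjusted p = 9.51e-07). GDF15, a stress-induced cytokine of the same family (chr19:18485541-18499986), was the most abundant of the 3 in LNCaP95, at 1825, 1716 and 1867 CPM in CTRL sh and 575, 704 and 833 in CPSF1 sh. In 22Rv1 it was at 30.5, 30 and 28.3 and 36.1, 51.6 and 71.5. The rise in 22Rv1 left it below every LNCaP95 library, and the difference of the changes was 2.17 ± 0.23 (adjusted p = 2.10e-07). The other genes of this class named by size were HIST2H2BE, a histone H2B gene, at 2.08, C8orf4 at 2.03 and SHISA4 at 1.67. C8orf4 was near the lower limit of expression, at 2.15 to 7.40 CPM in all libraries.

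The growth factor receptors EGFR and IGF1R were in the same class. EGFR was at 502, 507 and 490.1 CPM in 22Rv1 CTRL sh and 534, 716 and 784 in CPSF1 sh. In LNCaP95 it was at 1070, 975 and 919 and 434, 562 and 675. LNCaP95 was above 22Rv1 in all CTRL sh libraries and the lines overlapped in CPSF1 sh, with a difference of 1.29 ± 0.16 (adjusted p = 1.88e-06). IGF1R, the receptor of insulin-like growth factor 1, changed by 0.33 in 22Rv1 and -0.52 in LNCaP95, although the 22Rv1 CPSF1 sh1 replicate 3 library lay within the range of its CTRL sh libraries. IRS2, an adaptor of the insulin and IGF1 receptors, was lower in both lines and more so in LNCaP95, at -0.39 and -1.05. IGFBP3, which binds insulin-like growth factors outside the cell, rose in LNCaP95 by 2.44 ± 0.53, and its change in 22Rv1 was 0.28 ± 0.46 (adjusted p = 0.699). The hairpins were far apart for IGFBP3, with LNCaP95 changes of 0.852 for sh1 and 3.18 for sh2, and 22Rv1 changes of -0.227 and 0.649, so the pooled values describe neither hairpin. The call on its difference was lost with the scaled 22Rv1 change (adjusted p = 0.107). Of 12 tested genes of the insulin-like and epidermal growth factor axis, 6 had a more positive and 2 a more negative response in 22Rv1, beside 25.7% and 25.9% of all genes. In LNCaP95 1 rose and 8 fell, beside 34% and 34.3%, and in 22Rv1 2 rose and 3 fell, beside 11.7% and 13.3%. The median difference was 0.281, against -0.0015 over all genes. With the scaled 22Rv1 change 4 of the 12 were more positive and 1 more negative, beside 18.3% and 19.3% of all genes in that setting.

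Genes lower in 22Rv1 and higher in LNCaP95 were led by an enzyme of amino acid metabolism. BCAT1, the cytosolic aminotransferase that starts the breakdown of leucine, isoleucine and valine (chr12:24964295-25102393), was at 10.1, 8.16 and 8.53 CPM in 22Rv1 CTRL sh and at 4.06, 4.72 and 5.1 in CPSF1 sh. In LNCaP95 it was at 3.38, 5.75 and 3.28 and 10.4, 11.7 and 13.2. The lines changed places, and the difference was -2.42 ± 0.20 (adjusted p = 8.25e-09). TMOD2, a tropomodulin that caps actin filaments (chr15:52043758-52108565), was at 34.1, 33.3 and 29.9 and 22, 25.1 and 27.4 in 22Rv1 and at 3.75, 4.47 and 4.67 and 13.3, 16.1 and 18.1 in LNCaP95. TOX3, a transcription factor with a high mobility group box (chr16:52471917-52581714), was at 76.6, 85.8 and 88.2 and 37, 45.9 and 52 in 22Rv1 and at 5.44, 7.4 and 4.18 and 8.2, 11 and 13 in LNCaP95. For both genes the LNCaP95 level rose towards a 22Rv1 level that fell, and the differences were -2.29 (adjusted p = 1.50e-10) and -1.78 (adjusted p = 5.97e-07). FAM111B, a protease gene (chr11:58874658-58894883), was at 415, 429 and 432 and 293, 316 and 374 in 22Rv1, and at 34.7, 41.6 and 43.9 and 101, 129.7 and 160.1 in LNCaP95, a difference of -2.07. OSBPL3, an oxysterol-binding protein, differed by -1.95 and ENPP1, an ectoenzyme that hydrolyses ATP and cGAMP outside the cell, by -1.84.

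**Figure D2:**
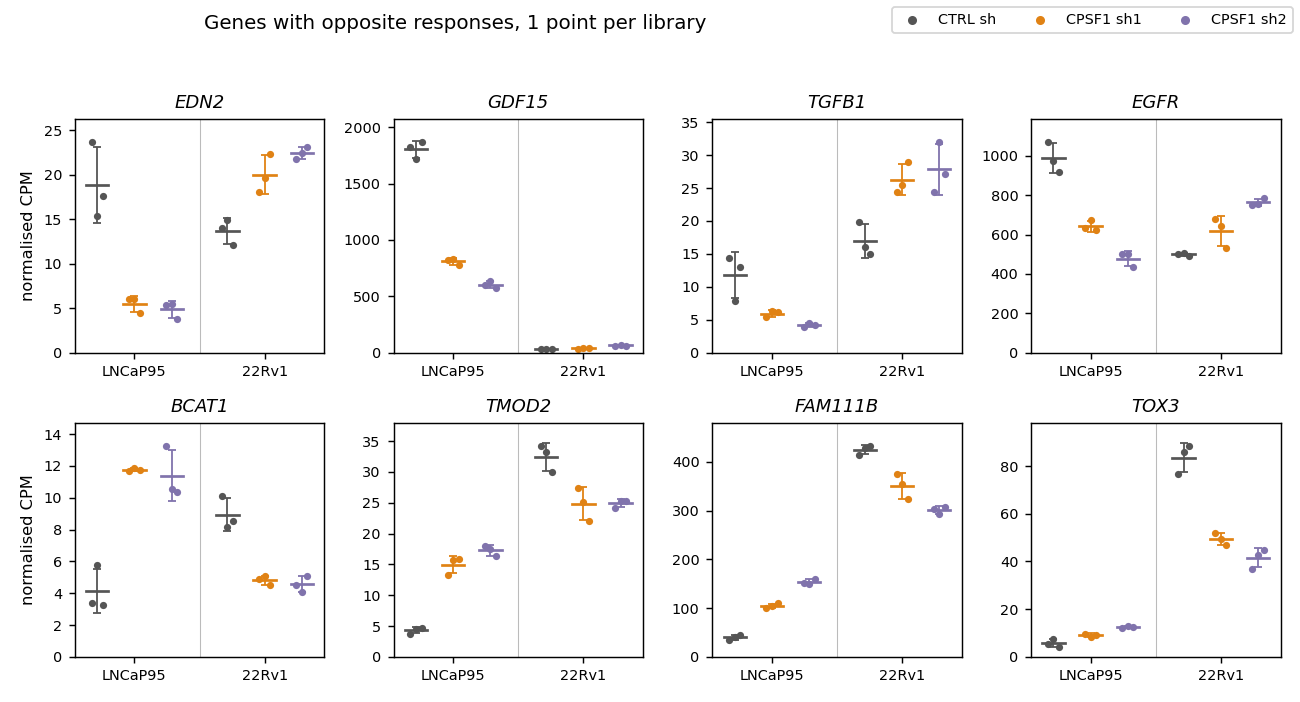
Normalised CPM (linear y axes from 0) of 8 genes with opposite responses, 1 point per library, in CTRL sh, CPSF1 sh1 and CPSF1 sh2 of LNCaP95 and 22Rv1, with bars at the mean and error bars of 1 SD (n = 3). In the upper row CPSF1 sh libraries are above CTRL sh in 22Rv1 and below it in LNCaP95, and in the lower row the reverse.

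The replication-dependent histone genes tested rose in 22Rv1. The mRNAs of these genes normally end, without a poly(A) tail, a few bases past a stem-loop, and libraries made from poly(A) RNA, as here, largely leave out transcripts without a tail. The stem-loop of each of the 6 genes tested is printed here because it marks where the usual cut is made (GRCh37, read from the genome on the gene's strand, with the stem and loop in capitals).
HIST1H1C: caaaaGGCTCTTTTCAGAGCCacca
HIST2H2BE: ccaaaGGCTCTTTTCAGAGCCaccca
HIST1H2AC: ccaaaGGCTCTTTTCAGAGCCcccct
HIST1H2BK: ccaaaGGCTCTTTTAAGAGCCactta
HIST1H2AG: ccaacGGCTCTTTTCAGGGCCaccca
HIST3H2A: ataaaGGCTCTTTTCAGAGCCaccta
They lie at chr6:26055968-26055992, chr1:149857733-149857758, chr6:26124892-26124917, chr6:27114140-27114165, chr6:27101289-27101314 and chr1:228645065-228645090. The span annotated in the deposited table ended 4 and 5 bases past the stem-loop in HIST1H1C and HIST3H2A, and 1728 to 14432 bases past it in the other 4 genes, whose models thus reach beyond the usual end.

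Of 22 replication-dependent histone genes listed, 6 passed the filter on low counts. These 6 rose in 22Rv1, beside 11.7% of all genes, whereas 1 rose and 1 fell in LNCaP95, beside 34% and 34.3%. HIST1H1C, a linker histone H1 gene, was at 9.78, 8.06 and 7.45 CPM in 22Rv1 CTRL sh and 24.4, 33.3 and 42 in CPSF1 sh. In LNCaP95 it was at 67.3, 59 and 63.7 and 50, 54.7 and 56.7. Every LNCaP95 library, with or without CPSF1 sh, was thus above every 22Rv1 library, and the 22Rv1 level approached it. HIST2H2BE was at 13, 16.2 and 15.6 and 42.1, 50 and 60.9 in 22Rv1, and at 68.2, 60.6 and 69.8 and 50.1, 53.7 and 55 in LNCaP95. The difference between lines was 2.17 ± 0.20 for HIST1H1C (adjusted p = 3.97e-08) and 2.08 ± 0.16 for HIST2H2BE (adjusted p = 2.20e-09). It was 1.20 for HIST1H2AC, 1.04 for HIST1H2AG and 0.70 for HIST3H2A, and these 5 passed the test, beside 25.7% of all genes more positive in 22Rv1. HIST1H2BK rose in both lines, by 1.32 and 0.79, and its difference of 0.53 did not pass (adjusted p = 0.0785), although it passed with each hairpin alone at 0.519 for sh1 (adjusted p = 0.00375) and 0.521 for sh2 (adjusted p = 0.00468). All 6 were more positive in 22Rv1 with either hairpin alone and with the scaled 22Rv1 change. The median change of the list was 1.2 in 22Rv1 and -0.167 in LNCaP95. Histone genes have near-identical copies, and how reads shared between copies were counted makes the value of a single gene uncertain.

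Genes activated by the tumour suppressor p53 also rose in 22Rv1 and, as a list, did not move in 1 direction in LNCaP95. Of 20 tested, 13 rose and none fell in 22Rv1, beside 11.7% and 13.3% of all genes, and in LNCaP95 3 rose and 6 fell, beside 34% and 34.3%. The median change was 0.35 in 22Rv1 and 0.0501 in LNCaP95. CDKN1A, the p21 inhibitor of cyclin-dependent kinases, was at 111, 101 and 108 CPM in 22Rv1 CTRL sh and 196, 256 and 317 in CPSF1 sh. In LNCaP95 it was at 309, 297 and 331 and 340.3, 362 and 397. The difference of 1.03 ± 0.17 passed the test (adjusted p = 4.41e-05). The change of 0.23 in LNCaP95 did not (adjusted p = 0.0908), although its groups did not overlap there. PHLDA3, which restrains AKT signalling, changed by 1.09 in 22Rv1 and 0.04 in LNCaP95. BTG2, an antiproliferative gene, and GDF15 were among 4 list members with opposite responses, at 0.78 and -0.81 for BTG2. By hairpin the difference was 0.93 (sh1) and 2.21 (sh2) for BTG2 and 1.59 and 2.7 for GDF15. The 22Rv1 changes were 0.364 and 1.1 for BTG2 and 0.432 and 1.12 for GDF15. The death receptor gene FAS and BBC3, which encodes the pro-apoptotic protein PUMA, fell in LNCaP95 by 0.73 and 0.67 on the log2 scale. Their changes of 0.17 and 0.20 in 22Rv1 did not pass the test. The 22Rv1 groups of BBC3 did not overlap, at 40.4 to 47.88 CPM in CTRL sh and 49.45 to 55.76 in CPSF1 sh. The LNCaP95 groups of BBC3 overlapped, and its change there was -0.351 for sh1 and -1.15 for sh2. Between the lines 13 were more positive and 1 more negative in 22Rv1, beside 25.7% and 25.9% of all genes. With CPSF1 sh1 alone 10 were more positive and 2 more negative (median difference 0.282), beside 22.9% and 23.2% of all genes, and with sh2 alone 18 and 2 (0.629), beside 31.4% and 31.9%.

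Other genes that changed in 22Rv1 only included a cytokine and an integrin. LIF, leukaemia inhibitory factor, was at 3.88, 4.31 and 4.11 CPM in 22Rv1 CTRL sh and 9.04, 12.4 and 17.5 in CPSF1 sh, and at 7.28, 6.58 and 8.65 and 5.01, 6.68 and 9.17 in LNCaP95. The LNCaP95 groups overlapped, and the difference was 1.73 ± 0.31 (adjusted p = 8.98e-05), at 1.13 for sh1 and 2.33 for sh2. AKAP12, a scaffold of protein kinase A, rose by 0.96 in 22Rv1, from 40.7, 40 and 35.2 to 59.2, 78.3 and 87.6 CPM, and changed by -0.21 in LNCaP95 (adjusted p = 0.187), where the change was 0.02 for sh1 and -0.486 for sh2. ITGA1, the α1 subunit of a collagen-binding integrin, was at 41.2, 48.7 and 43.2 in 22Rv1 CTRL sh and 16.1, 18.9 and 26 in CPSF1 sh, while LNCaP95 stayed between 3.745 and 7.015 CPM in all 9 libraries. The differences were 1.17 for AKAP12 (0.717 for sh1 and 1.64 for sh2) and -1.38 for ITGA1. DHRS2, a short-chain dehydrogenase, AK7, an adenylate kinase, and SAMD4A, a repressor of translation, fell in 22Rv1 by 1.28, 0.91 and 0.87 on the log2 scale, and by hairpin the difference was -0.681 (sh1) and -2.15 (sh2) for DHRS2 and -1.03 and -1.82 for AK7.

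**Figure D3:**
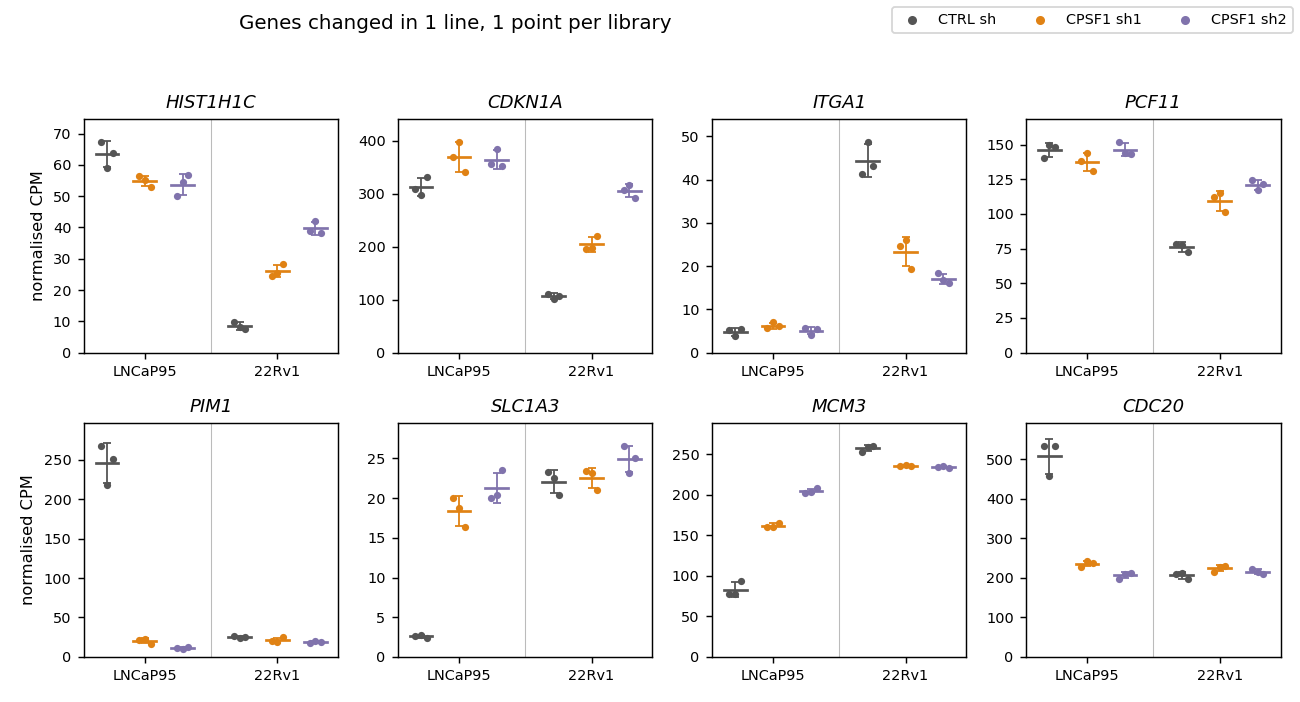
Normalised CPM (linear y axes from 0) of 4 genes whose change was called in 22Rv1 only (upper row) and 4 whose change was called in LNCaP95 only (lower row), 1 point per library, with bars at the mean and error bars of 1 SD (n = 3). PIM1 is between 217.6 and 267 in LNCaP95 CTRL sh and between 10.1 and 26.6 in all other libraries shown.

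The largest difference between the lines was that of PIM1, whose change was called in LNCaP95 only. PIM1, a serine/threonine kinase that promotes survival (chr6:37137979-37143202), was at 267, 218 and 252 CPM in LNCaP95 CTRL sh and 10.1, 14.5 and 22.7 in CPSF1 sh. In 22Rv1 it was at 26.6, 24 and 24.8 and 17.6, 19.1 and 24.6. The knockdown brought LNCaP95 to the 22Rv1 level or below it, with a log2 change of -3.92 ± 0.15 and a difference between lines of 3.57 ± 0.24 (adjusted p = 2.73e-10). C1orf63 and GADD45B, a stress-induced signalling protein, fell in LNCaP95 by 2.87 and 3.17, with 22Rv1 changes of -0.01 and -0.43 that did not pass. Of 13 PIM, GADD45, SOCS and NF-kB feedback genes tested, 9 had a more positive response in 22Rv1 and none a more negative one, beside 25.7% and 25.9% of all genes, and the median difference was 0.914. In LNCaP95 10 of them fell, beside 34.3% of all genes, and in 22Rv1 2 rose and 2 fell, beside 11.7% and 13.3%. Without 22Rv1 CPSF1 sh1 replicate 3 these were 2 and 4, beside 14.7% and 15.9% of all genes, with sh1 alone none and 2, beside 7.55% and 9.63%, and with sh2 alone 4 and 5, beside 22.6% and 23.3%. GADD45A and the cytokine signalling inhibitor SOCS2 were opposite, at 0.37 and -1.25, and at 0.69 and -0.57. Their groups overlapped in 22Rv1, where the change was 0.172 (sh1) and 0.531 (sh2) for GADD45A and 0.408 and 0.93 for SOCS2. PIM3 and the transcription factor IRF1 differed by 1.05 and 0.99, and the call on IRF1 was lost with the scaled 22Rv1 change (adjusted p = 0.102).

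Immediate early genes, which growth signals switch on within minutes, followed the same pattern. FOS, a subunit of the AP-1 transcription factor, was at 60, 44.3 and 51.9 CPM in LNCaP95 CTRL sh and 4.16, 8.26 and 16.8 in CPSF1 sh, and at 6.24, 5.63 and 5.51 and 5.28, 6.89 and 7.49 in 22Rv1. The hairpins were apart in LNCaP95, and the difference between lines was 1.94 for sh1 and 3.81 for sh2. The phosphatases DUSP1 and DUSP6, which switch off MAP kinases, fell in LNCaP95 by 1.86 and 1.35, and changed by -0.03 and 0.18 in 22Rv1, where neither passed. JUND fell in both lines, by 0.64 in 22Rv1 and 2.36 in LNCaP95, and ETV4 fell in LNCaP95 by 1.34. Of 14 genes tested 9 were more positive in 22Rv1 and none more negative (median difference 0.752), beside 25.7% and 25.9% of all genes. In LNCaP95 10 fell, beside 34.3% of all genes, and in 22Rv1 2 fell, near the 13.3% of all genes.

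Genes that rose in LNCaP95 only were led by SLC1A3, a glutamate and aspartate transporter (chr5:36606457-36688436). It was at 2.65, 2.74 and 2.39 CPM in LNCaP95 CTRL sh and 16.4, 20.1 and 23.5 in CPSF1 sh, and at 23.3, 22.6 and 20.4 and 21.1, 23.3 and 26.5 in 22Rv1. The LNCaP95 level rose about to that of 22Rv1, where the groups overlapped, and the difference was -2.82 ± 0.17 (adjusted p = 6.94e-11). DHX58, a sensor of viral RNA, was at 2.94, 4.57 and 4.18 and 16.5, 21.2 and 25.5 in LNCaP95, and at 3.88, 3.38 and 5.4 and 2.63, 4.44 and 5.38 in 22Rv1. RPRML and ARHGAP6 rose in LNCaP95 by 1.99 and 2.42, from CTRL sh levels near the filter limit, at 2.21 to 2.83 and 2.49 to 3.1 CPM. The 22Rv1 change of RPRML was -0.59 and did not pass (adjusted p = 0.0736), so part of its difference lies in 22Rv1. Of 10 interferon response genes tested none rose and 5 fell in 22Rv1, beside 11.7% and 13.3% of all genes, and 3 rose and 3 fell in LNCaP95, beside 34% and 34.3%. Between the lines 2 were more positive in 22Rv1, near the 25.7% of all genes, and 5 more negative, beside 25.9%. OAS3, which makes oligoadenylates on viral RNA, was opposite, at -0.31 and 1.11, but its 22Rv1 groups overlapped and its 22Rv1 change (adjusted p = 0.0474) was -0.101 for sh1 and -0.566 for sh2. PARP9 rose in LNCaP95 only, by 0.81, and STAT2 fell there by 0.58.

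In LNCaP95 most genes of DNA replication and the G1/S transition rose and most genes of G2 and mitosis fell, whereas fewer of either list changed in 22Rv1. Genes of DNA replication and the G1/S transition are driven by E2F factors, and genes of G2 and mitosis by a complex that reads the cell cycle homology region (CHR) with CCAAT boxes nearby. Promoters of 2 strongly differing genes of each list are printed here because the lists moved apart (RefSeq, GRCh38.p14, 250 bases before to 50 after the gene start, on the gene's strand). In MCM3 (chr6:52284693-52284992, minus strand) and CDT1 (chr16:88803539-88803838, plus strand) the capitals mark the E2F words TTTGGCGC, TTTCCCGC, TTTGCCGC, TTTCGCGC, TTTGGCGG or TTTCCCGG, and in CDC20 (chr1:43358731-43359030, plus strand) and BUB1 (chr2:110678014-110678313, minus strand) the CHR words TTTGAA or TTCGAA and CCAAT, on either strand, and overlapping matches share capitals.
MCM3: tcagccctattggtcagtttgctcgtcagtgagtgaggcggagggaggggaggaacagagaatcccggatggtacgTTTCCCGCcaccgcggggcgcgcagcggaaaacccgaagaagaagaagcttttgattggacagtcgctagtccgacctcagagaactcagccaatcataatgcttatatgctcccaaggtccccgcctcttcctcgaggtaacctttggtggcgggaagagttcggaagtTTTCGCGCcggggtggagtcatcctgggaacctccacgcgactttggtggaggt
CDT1: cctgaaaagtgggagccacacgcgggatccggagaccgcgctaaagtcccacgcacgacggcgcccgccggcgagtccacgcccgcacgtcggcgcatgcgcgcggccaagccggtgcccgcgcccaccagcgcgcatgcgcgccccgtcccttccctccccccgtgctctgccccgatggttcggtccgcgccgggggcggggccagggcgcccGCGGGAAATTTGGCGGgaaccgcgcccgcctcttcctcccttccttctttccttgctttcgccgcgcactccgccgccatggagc
CDC20: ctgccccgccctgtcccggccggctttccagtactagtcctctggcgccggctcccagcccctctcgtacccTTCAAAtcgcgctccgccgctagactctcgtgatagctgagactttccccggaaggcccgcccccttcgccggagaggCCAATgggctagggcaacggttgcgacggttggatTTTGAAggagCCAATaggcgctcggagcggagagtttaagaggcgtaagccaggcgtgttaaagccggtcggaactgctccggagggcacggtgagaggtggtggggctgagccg
BUB1: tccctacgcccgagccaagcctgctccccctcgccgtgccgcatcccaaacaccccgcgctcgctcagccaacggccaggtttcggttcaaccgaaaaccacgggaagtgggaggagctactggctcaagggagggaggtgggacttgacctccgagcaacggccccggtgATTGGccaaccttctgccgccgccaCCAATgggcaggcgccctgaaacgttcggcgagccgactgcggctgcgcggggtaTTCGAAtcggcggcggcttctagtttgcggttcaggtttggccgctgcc
An E2F word was in 18 of the 28 replication and G1/S promoters matched by symbol (64.3%), in 4 of 23 G2/M promoters (17.4%), in 9.33% of the 8159 promoters matched to genes tested and in 5.33% of all 35116 promoters of the table. A CHR word was in 17 of the 23 G2/M promoters (73.9%), in 2 of the 28 (7.14%), in 10.6% of the genes tested and in 16.4% of all. Such matches describe the letters in these windows and are no measure of binding.

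Of 33 replication and G1/S genes tested, 30 had a more negative response in 22Rv1 and none a more positive one, beside 25.9% and 25.7% of all genes. In LNCaP95 26 rose and 1 fell, beside 34% and 34.3% of all genes, and in 22Rv1 none rose and 8 fell, beside 11.7% and 13.3%. The count that fell in 22Rv1 differed by hairpin, with 5 for sh1 alone, beside 9.63% of all genes, and 17 for sh2 alone, beside 23.3%, where 2 also rose, beside 22.6%. The median change was 0.569 and -0.11, and the median difference -0.745, and it ranged from -0.568 (sh1) to -0.904 (sh2) by hairpin. MCM3, a subunit of the replicative helicase, was at 78.2, 77.5 and 93.3 CPM in LNCaP95 CTRL sh and 159.8, 184 and 208 in CPSF1 sh, and at 253, 259 and 259.8 and 233, 235 and 237 in 22Rv1. CCNE2, cyclin E2, was at 12.1, 13.9 and 13.4 and 27.2, 35.7 and 40.2 in LNCaP95 and at 78.5, 80.8 and 85.8 and 77.4, 83.2 and 86.9 in 22Rv1. Both rose in LNCaP95 and stayed below the 22Rv1 libraries, with differences of -1.27 ± 0.11 (adjusted p = 1.71e-08) and -1.36 ± 0.15 (adjusted p = 2.72e-07). MCM5, another helicase subunit, was opposite, at -0.42 and 0.82, and so was CDT1, which loads the helicase, at -0.26 and 0.79, although its 22Rv1 groups overlapped and the change there was -0.14 for sh1 and -0.404 for sh2. GINS3 and MCM10, which act in helicase activation, differed by -1.18 and -1.06.

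Of 28 G2/M and mitosis genes 23 had a more positive response in 22Rv1 and none a more negative one, beside 25.7% and 25.9% of all genes. In LNCaP95 25 fell, beside 34.3% of all genes, and in 22Rv1 4 fell, near the 13.3% of all genes (3 for sh1 alone, beside 9.63%, and 7 for sh2 alone, beside 23.3%). The median change was -0.428 in LNCaP95 and -0.00402 in 22Rv1. CDC20, the activator of the anaphase-promoting complex, was at 533, 457 and 533 CPM in LNCaP95 CTRL sh and 198, 221 and 242 in CPSF1 sh, and at 211, 212 and 197 and 209.6, 219 and 231 in 22Rv1. The 22Rv1 groups overlapped, and the difference was 1.28 ± 0.09 (adjusted p = 2.73e-10). BUB1, a spindle checkpoint kinase, differed by 0.84, KIF23, a kinesin of cytokinesis, by 0.60, the checkpoint kinase TTK by 0.58, the kinetochore gene NUF2 by 0.55 and the mitotic kinase AURKA by 0.54, all falling in LNCaP95 only. In bulk RNA, fewer cells in a phase of the cycle and less RNA per cell cannot be told apart. Of 24 ribosome biogenesis genes tested 17 were more negative and 1 more positive in 22Rv1, beside 25.9% and 25.7% of all genes. In LNCaP95 19 rose, beside 34% of all genes, and in 22Rv1 2 rose, near the 11.7% of all genes (1 for sh1 alone, beside 7.55%, and 8 for sh2 alone, beside 22.6%). Without 22Rv1 CPSF1 sh1 replicate 3, 4 rose, beside 14.7%. NOP56, a core protein of box C/D snoRNPs, rose in LNCaP95 by 0.83 and UTP20 by 0.61, and the RNA polymerase I subunits POLR1A and POLR1B by 0.67 and 0.74. None of the 4 passed in 22Rv1, although the groups of UTP20 did not overlap there.

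**Figure D4:**
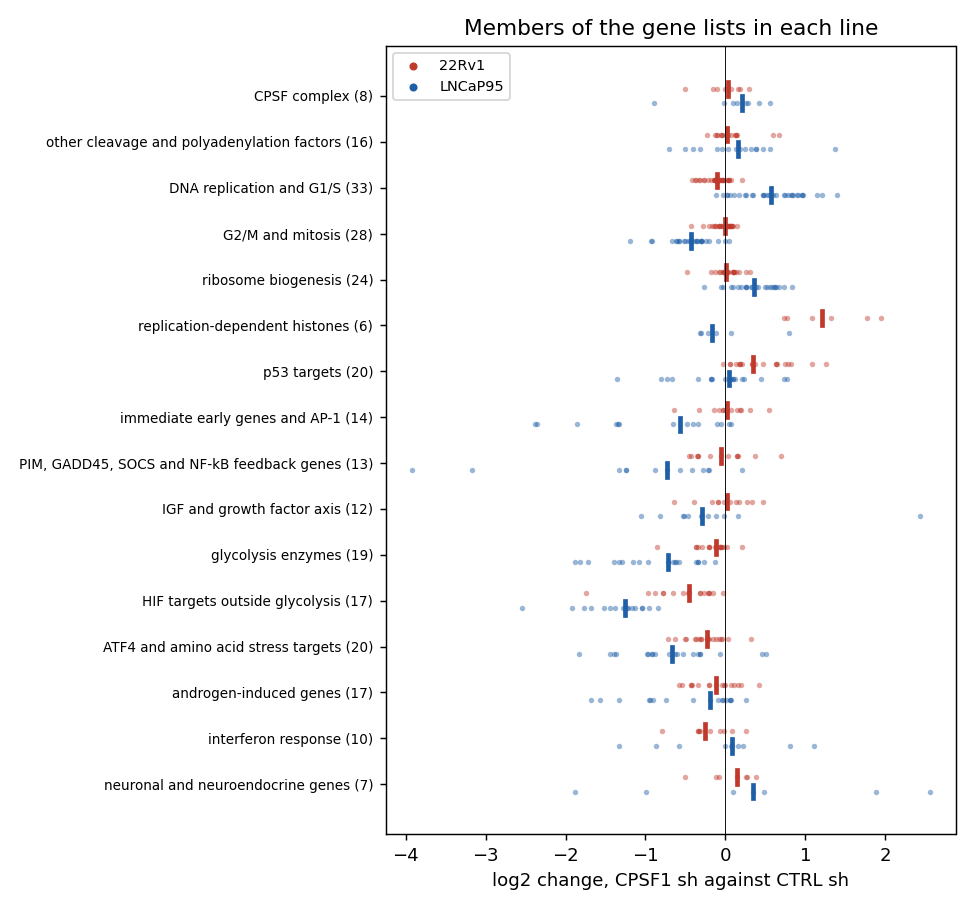
Log2 change in CPSF1 sh against CTRL sh (x axis) of each tested member (points) of 16 gene lists (rows, with the number tested), in 22Rv1 (red) and LNCaP95 (blue), with a bar at the median. Histones and p53 targets lie to the right in 22Rv1, and G1/S genes lie to the right and G2/M genes to the left in LNCaP95.

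Glycolysis enzymes fell in LNCaP95, and most of them had no called change in 22Rv1. Of 19 tested all fell in LNCaP95, beside 34.3% of all genes, and 6 fell and none rose in 22Rv1, beside 13.3% and 11.7%. With CPSF1 sh2 alone 14 fell in 22Rv1, beside 23.3% of all genes, and with sh1 alone 6, beside 9.63%. The response was more positive in 22Rv1 for 17 and more negative for none, beside 25.7% and 25.9% of all genes. The median change was -0.719 in LNCaP95 and -0.123 in 22Rv1. PFKFB3, which makes the activator of phosphofructokinase, was at 286, 239 and 250.5 CPM in LNCaP95 CTRL sh and 81.3, 93.2 and 119.6 in CPSF1 sh, and at 59.8, 54 and 50.5 and 49.3, 53 and 57.2 in 22Rv1, where the groups overlapped. ENO2, PFKFB4, hexokinase HK2 and GPI differed by 1.77, 1.38, 1.13 and 1.10, and none of these 5 passed in 22Rv1. The groups of PFKFB4 nevertheless did not overlap there. Among 17 targets of the hypoxia-inducible factors outside glycolysis all fell in LNCaP95 and 9 in 22Rv1, beside 34.3% and 13.3% of all genes. The response was more positive in 22Rv1 for 13 and more negative for none, beside 25.7% and 25.9%. With sh1 alone 12 fell in 22Rv1, beside 9.63% of all genes, and with sh2 alone 15, beside 23.3%. HILPDA, a lipid droplet protein, was at 208, 169 and 181 and 20.6, 30.3 and 42.1 in LNCaP95 and at 36.8, 34.8 and 33.3 and 31, 34.3 and 38.1 in 22Rv1. The angiogenic factor VEGFA, the histone demethylase KDM3A, the oxidase ERO1L and NDRG1 differed by 1.07, 1.23, 1.12 and 1.48. With the 22Rv1 change multiplied by 1.78, 13 glycolysis genes and 5 of the hypoxia targets were more positive in 22Rv1, and 1 of the latter was more negative, beside 18.3% and 19.3% of all genes in that setting.

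Targets of ATF4, which responds to amino acid shortage and stress of the endoplasmic reticulum, fell in both lines. In LNCaP95 17 of 20 fell and 2 rose, beside 34.3% and 34% of all genes, and in 22Rv1 12 fell and 1 rose, beside 13.3% and 11.7%. The response was more positive in 22Rv1 for 12 and more negative for 2, beside 25.7% and 25.9%. DDIT3, the stress factor CHOP, was at 334, 316 and 321 CPM in LNCaP95 CTRL sh and 96.6, 119 and 145 in CPSF1 sh, and at 62.5, 56.8 and 60.7 and 54.5, 56.5 and 61.6 in 22Rv1. ATF3, CHAC1, which degrades glutathione, the amino acid transporter subunit SLC3A2 and STC2 differed by 1.29, 1.32, 0.76 and 1.01. SESN2, a sestrin that restrains mTORC1, was opposite, at 0.32 in 22Rv1, where the groups overlapped and the change was 0.137 for sh1 and 0.485 for sh2, and -0.71 in LNCaP95. With the scaled 22Rv1 change 5 were more positive and 3 more negative, near the 18.3% and 19.3% of all genes in that setting, and the median difference went from 0.311 to 0.0993.

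Androgen-induced genes that changed mostly fell in both lines. Of 17 tested none rose and 9 fell in LNCaP95, beside 34% and 34.3% of all genes, and 2 rose and 7 fell in 22Rv1, beside 11.7% and 13.3%. KLK3, which encodes prostate-specific antigen (chr19:51358171-51364020), was at 42.7, 38.2 and 43.5 CPM in 22Rv1 CTRL sh and 49.1, 56.6 and 58.5 in CPSF1 sh, and at 2046, 2058 and 2083 and 968, 1073 and 1156 in LNCaP95. It was the only list member with opposite responses, and the difference was 1.37 ± 0.09 (adjusted p = 4.64e-10). TMPRSS2, a serine protease, fell in both lines, by 0.58 in 22Rv1 and 1.57 in LNCaP95. HERC3, a ubiquitin ligase, and the transporter ABCC4 fell in LNCaP95 by 1.33 and 0.74, whereas ELL2, a transcription elongation factor, fell in 22Rv1 by 0.41 and was at 0.26 in LNCaP95 (adjusted p = 0.0687). Of the 17, 8 were more positive and 3 more negative in 22Rv1, which is 64.7% called beside 51.7% of all genes, with a median difference of 0.1. With the scaled 22Rv1 change these were 5 and 4, beside 18.3% and 19.3% of all genes in that setting. By hairpin the 22Rv1 change of ABCC4 was -0.252 (sh1) and 0.391 (sh2), and the LNCaP95 change of ELL2 was -0.0797 and 0.542. Among 7 neuronal and neuroendocrine genes 2 were more positive, near the 25.7% of all genes, and 4 more negative, beside 25.9%. In LNCaP95 4 rose, beside 34% of all genes, and 2 fell, near 34.3%. In 22Rv1 1 rose and 1 fell, near the 11.7% and 13.3% of all genes. SYT4, a synaptotagmin of vesicle fusion, was at 189, 241 and 220.5 in LNCaP95 CTRL sh and 703, 817 and 882 in CPSF1 sh, and at 560.5, 579 and 587 and 593, 638 and 669 in 22Rv1. RTN1, a reticulon, rose in LNCaP95 by 2.55, while ENO2 and DPYSL4 fell there, by 1.88 and 0.99.

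Within the cleavage and polyadenylation machinery the share of genes called between lines was above that of all genes, in 2 short lists. Of 8 subunits of CPSF 1 was more positive, CPSF1 itself, and 4 more negative in 22Rv1, and of 16 other factors 4 and 7, which is 62.5% and 68.8% called beside 51.7% of all genes. In LNCaP95 5 of the 8 rose and 1 fell, and 9 of the 16 rose and 4 fell, beside 34% and 34.3% of all genes. In 22Rv1 2 of the 8 rose and 2 fell, and 2 of the 16 rose and 1 fell, beside 11.7% and 13.3%. PCF11, which links cleavage to the end of transcription, was at 78.7, 77.5 and 72.5 CPM in 22Rv1 CTRL sh and 102, 116 and 124 in CPSF1 sh, and at 140.4, 149.9 and 148 and 131, 143 and 152 in LNCaP95. It rose in 22Rv1 only, with a difference of 0.64 ± 0.08 (adjusted p = 1.65e-06). CSTF3, the scaffold of the cleavage stimulation factor, rose in both lines and more in LNCaP95, from 35.6, 43.5 and 47.8 to 104, 108 and 113 there and from 88.9, 91.7 and 92.8 to 129.9, 145 and 155 in 22Rv1, and its call was lost with the scaled change (adjusted p = 0.307). Its partner CSTF2 rose in LNCaP95 only, by 0.55, and SCAF8 fell in both, by 0.23 and 0.70. In CPSF itself the scaffold SYMPK rose in LNCaP95 only, by 0.42. CPSF4, which helps to bind the AAUAAA signal, was opposite at -0.16 and 0.14, and WDR33, which contacts the same signal, rose in both, by 0.30 and 0.56. The call on WDR33 (difference -0.26, adjusted p = 0.0271) was lost in 7 of the alternatives, among them without LNCaP95 CTRL sh replicate 1 (adjusted p = 0.0782) and without 22Rv1 CTRL sh replicate 1 or 2 (0.0706 and 0.0557).

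Genes that moved the same way in both lines differed in size. AOC3, an amine oxidase, rose by 2.27 in 22Rv1, from 2.36, 4.03 and 2.59 to 11.8, 14.4 and 17.2 CPM, and by 1.26 in LNCaP95, from 11.8, 11.9 and 11.8 to 23.7, 27.8 and 35.2. UGT2B11, a glucuronosyltransferase, and ALPK3, a kinase, also rose more in 22Rv1, by 1.38 against 0.16 and by 1.13 against 0.45. UGT2B11 has close paralogs that can share its reads, and was at 2.53 to 10.8 CPM in 22Rv1. RGS5, a regulator of G protein signalling, rose more in LNCaP95, from 4.49, 4.02 and 3.98 to 24.5, 32 and 41.4 CPM, than in 22Rv1, from 10.9, 12.5 and 10.7 to 15.6, 17.9 and 18.9. ERMAP, and AIFM2, an oxidoreductase that protects against ferroptosis, rose by 2.72 and 2.54 in LNCaP95 and by 0.81 and 0.76 in 22Rv1.

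Levels of several lists were closer between the lines in CPSF1 sh than in CTRL sh. In CTRL sh all 33 G1/S genes were higher in 22Rv1, by a median of 1.51 on the log2 CPM scale, and in CPSF1 sh 32 were, by 0.65. For 32 of the 33 genes the gap was smaller in CPSF1 sh, beside 58.5% of all genes tested. Hypoxia targets were lower in 22Rv1, with a median of -2.58 for 22Rv1 minus LNCaP95 in CTRL sh and -1.89 in CPSF1 sh, and the gap narrowed for 16 of 17. Histone genes went from -1.65 to -0.382 and p53 targets from -0.933 to -0.493, where the gap narrowed for 4 of 6 and 15 of 20. For G2/M genes the median went from -0.154 to 0.334, and the gap narrowed for 11 of 28. Among the genes with opposite responses it narrowed for 161 of 235 (68.5%) and 193 of 290 (66.6%). The gaps and the responses share all libraries, so this is another view of the same values and not a further test.

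Some genes could be compared in 1 line only. Of 470 genes above 2 CPM in all 22Rv1 libraries and below 0.5 CPM in all LNCaP95 libraries, 51 rose and 100 fell in 22Rv1, which is 10.9% and 21.3%, beside 11.9% and 13.3% of the 12357 genes above 2 CPM in all libraries of at least 1 line. REG4, a secreted lectin, rose by 2.2 ± 0.184 on the log2 scale, from between 3.23 and 4.19 to between 14.1 and 21.3 CPM. SPINK1, a secreted trypsin inhibitor, fell by 1.1, from between 124 and 134 to between 48 and 81.7 CPM. Of 119 genes expressed in this sense in LNCaP95 and not in 22Rv1, 44 rose and 22 fell, which is 37% and 18.5%, beside 34.1% and 30.6%. MAB21L3 fell by 2.45 and the fucosyltransferase gene FUT3 by 1.97, while the neuron navigator NAV2 rose by 2.25 and the serotonin receptor gene HTR2C by 1.81. CA9, carbonic anhydrase 9 and a hypoxia target, fell by 1.55, from between 49.6 and 56.2 to between 10.8 and 24 CPM. These genes were chosen after their values were seen, REG4, SPINK1 and CA9 among the largest changes or for what they encode.

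The third line of the series, hormone-sensitive LNCaP, was not part of the comparison and was fitted alone with the same filter and test. Of the 235 genes higher in 22Rv1 and lower in LNCaP95, 228 were tested there, and 72 rose and 80 fell (31.6% and 35.1%, beside 31.6% and 30.6% of all genes). Of the 290 genes of the reverse class 276 were tested, and 76 rose and 77 fell (27.5% and 27.9%). Neither class took the side of 1 line as a whole. By list LNCaP was on the side of 22Rv1 for histones, of which 6 of 6 rose with a median of 1.09, and for p53 targets, of which 15 of 20 rose (0.446). Lists on the side of LNCaP95 included ribosome biogenesis, with 15 of 24 that rose and 4 that fell (0.249), immediate early genes, with 2 of 9 that rose and 6 that fell (-0.349), and the PIM, GADD45, SOCS and NF-kB feedback genes, with 2 of 12 that rose and 6 that fell (-0.389). Hypoxia targets, which had negative medians in both other lines, fell for 16 of 16 (-1.07), and glycolysis enzymes fell for 16 of 19 and rose for 1 (-0.374). For G1/S genes 14 of 33 rose and 4 fell, and for G2/M genes 6 of 28 rose and 9 fell. Single genes went both ways as well: KLK3 changed by -1.62 in LNCaP, EDN2 by 0.72 and GDF15 by -0.76.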

How the data were processed

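RNA-seq was made from poly(A) RNA of LNCaP95 and 22Rv1 cells carrying the control or either CPSF1 hairpin, in 3 biological replicates per group, and 9599566 to 15904518 reads per library fell on genes. The authors aligned reads to hg19 with HISAT2 2.1.0 (submitters' processing notes) and counted fragments on Ensembl exons with featureCounts in reverse-stranded mode. The processing notes give Subread 2.0.3, which differs from the version in the methods. The deposited values are raw counts for 20268 gene symbols, without normalization.

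The 10514 genes above 2 CPM in all 18 libraries were tested with edgeR 4.0.16 (R 4.3.3), with TMM factors, quasi-likelihood F-tests and Benjamini-Hochberg adjustment over these genes, in 1 model of 4 groups (line by pooled treatment). The contrast was the CPSF1 sh effect in 22Rv1 minus that in LNCaP95. A gene was called at an adjusted p below 0.05. Normalised CPM values of named genes use TMM-scaled library sizes. CPM values of the marker lists, and of genes compared in 1 line only, are scaled to library size without these factors. On simulated data 99% of 100 genes with a difference of 1 and 67% of 100 with 0.5 were recovered among 10514 genes, and 13 unchanged genes were called. The p-values measure the spread between libraries within these 4 groups, which in CPSF1 sh includes the difference between the hairpins as well as between replicates. With the hairpins as separate groups 6332 genes were called.

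Named genes were CPSF1, up to 6 members of each list described, by size of the difference among those called, and among called genes with separated libraries the largest differences of each class. Members and lists were chosen with earlier results of these data known. Alternatives used other normalization, tests, filters, hairpins, libraries and a scaled 22Rv1 effect (DESeq2 1.42.0 for one). Stem-loops came from the GRCh37 genome and promoters from RefSeq (GRCh38.p14).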

Additional observations from a re-analysis of the deposited data

Results flagged for a closer look

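Each named gene that passed the test of the difference between the lines is given here with its log2 difference in response, 22Rv1 minus LNCaP95, since the responses differed between the 2 lines beside an unequal loss of CPSF1 (edgeR quasi-likelihood test, interaction of line and knockdown). No explanation was tested.

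Genes named by size in each class come first, and list members given after them can belong to the same classes. Of the genes named by size, those with opposite signs that were more positive in 22Rv1 were EDN2 2.48, GDF15 2.17, HIST2H2BE 2.08, C8orf4 2.03, TGFB1 1.86 and SHISA4 1.67. Those with opposite signs that were more negative in 22Rv1 were BCAT1 -2.42, TMOD2 -2.29, FAM111B -2.07, OSBPL3 -1.95, ENPP1 -1.84 and TOX3 -1.78. Among those called in 22Rv1 alone the differences were HIST1H1C 2.17, LIF 1.73, HIST1H2AC 1.20, AKAP12 1.17, ITGA1 -1.38, DHRS2 -1.36, AK7 -1.36 and SAMD4A -1.09. Among those called in LNCaP95 alone the differences were SLC1A3 -2.82, RPRML -2.57, DHX58 -2.44, ARHGAP6 -2.39, PIM1 3.57, C1orf63 2.86, GADD45B 2.73 and FOS 2.58. Among those that moved the same way they were UGT2B11 1.23, AOC3 1.02, ALPK3 0.68, RGS5 -2.32, ERMAP -1.91 and AIFM2 -1.78.

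Subunits of CPSF had CPSF1 0.39, SYMPK -0.42, CPSF4 -0.30 and WDR33 -0.26. Other cleavage and polyadenylation factors had CSTF3 -0.70, PCF11 0.64, CSTF2 -0.60 and SCAF8 0.47. DNA replication and G1/S genes had CCNE2 -1.36, MCM3 -1.27, MCM5 -1.24, GINS3 -1.18, MCM10 -1.06 and CDT1 -1.05. G2/M and mitosis genes had CDC20 1.28, BUB1 0.84, KIF23 0.60, TTK 0.58, NUF2 0.55 and AURKA 0.54. Ribosome biogenesis genes had NOP56 -0.83, UTP20 -0.79, POLR1A -0.63 and POLR1B -0.60. The other histone genes had HIST1H2AG 1.04 and HIST3H2A 0.70. P53 targets had BTG2 1.59, PHLDA3 1.05, CDKN1A 1.03, FAS 0.89 and BBC3 0.88. Immediate early genes and AP-1 had DUSP1 1.83, JUND 1.72, DUSP6 1.53 and ETV4 1.41. PIM, GADD45, SOCS and NF-kB feedback genes had GADD45A 1.61, SOCS2 1.26, PIM3 1.05 and IRF1 0.99. Genes of the growth factor axis had IGFBP3 -2.16, EGFR 1.29, IGF1R 0.85 and IRS2 0.66. Glycolysis enzymes had ENO2 1.77, PFKFB4 1.38, PFKFB3 1.35, HK2 1.13 and GPI 1.10. HIF targets outside glycolysis had HILPDA 2.51, NDRG1 1.48, KDM3A 1.23, ERO1L 1.12 and VEGFA 1.07. ATF4 and amino acid stress targets had DDIT3 1.38, CHAC1 1.32, ATF3 1.29, SESN2 1.03, STC2 1.01 and SLC3A2 0.76. Androgen-induced genes had HERC3 1.53, KLK3 1.37, TMPRSS2 0.99, ABCC4 0.85 and ELL2 -0.67. Interferon response genes had OAS3 -1.43, PARP9 -0.72 and STAT2 0.56. Neuronal and neuroendocrine genes had RTN1 -2.17, SYT4 -1.74 and DPYSL4 1.26.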

How the results depend on the processing

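The named genes called between lines numbered 104, and of 3215 alternative values for them 3200 kept direction and call, 15 kept direction but not the call, and none turned. Scaling by library size alone shifted the median difference over all genes to -0.077 and the share of more positive calls to 36.9% (49.8% with RLE factors). Medians of the 16 lists kept their sign in all 496 alternatives, and 48 moved by more than 1 SD between replicates. Differences in genes near 2 CPM are limited by counting. Pairing was not supported: same-numbered libraries of a line deviated together with r from -0.26 to 0.31, so the replicate block, under which 5022 genes were called and 176 and 217 of the opposite genes kept their class, was not used.

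With hairpins as separate groups, the opposite classes held 443 (higher in 22Rv1) and 475 genes (lower in 22Rv1), and with CPSF1 sh2 alone 582 and 576. With CPSF1 sh1 alone the first held 155, and 314 genes changed in 22Rv1 only. With the scaled 22Rv1 effect 2476 changed in LNCaP95 only. Requiring a difference above 1 left 211 more positive and 251 more negative responses, 42 and 72 opposite genes, 14 changed in 22Rv1 only and 299 in LNCaP95 only. Requiring a change of 0.5 in each line, chosen after seeing the data, left 11 and 23 opposite genes. The cause was not tested for the hairpins, and the size limits remove genes by construction. Leaving out each library in turn gave 2405 to 2821 more positive and 2456 to 2868 more negative responses, 132 to 319 and 176 to 345 opposite genes, 342 to 560 changed in 22Rv1 only and 3358 to 3944 in LNCaP95 only. The lowest counts of opposite genes came without 22Rv1 CTRL sh replicate 2, and the highest without 22Rv1 CPSF1 sh1 replicate 3.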
